A study of Mus musculus with 3 samples.

Results

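Sterol synthesis in mouse skin is described here through 8 genes, Hmgcs1, Idi1, Fdps, Fdft1, Sqle, Lss, Cyp51 and Insig1. They were picked by name from the deposited tables, each UniGene cluster being tied to its gene by exact match of its tags to reference transcripts. Each gene had 1 cluster, so they make up 8 of the 20595 clusters listed in any table. Insig1 codes for a regulator and the others for enzymes, and none is a receptor for cholesterol uptake. Genes of uptake are therefore given separately. The skin came from male C57BL/6 mice, 2 months old, that were depilated 9 days before the injection to start hair growth. Untreated skin formed day 0, and skin taken 1 and 2 days after cyclophosphamide at 150 mg/kg into the peritoneum formed days 1 and 2, with 1 library per group. The series design gives the dose per kg, whereas the sample labels write it per km. Skin without the drug at days 1 and 2 was not analysed here, so the drug and the time since day 0 cannot be told apart. No source used here gives the number of mice behind a library.

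Cholesterol is built from acetyl-CoA by way of mevalonate, isoprenoid diphosphates, squalene and lanosterol. Hmgcs1 makes the precursor of mevalonate, Idi1 converts one isoprenoid unit into its reactive isomer, and Fdps joins such units into farnesyl diphosphate. Fdft1 condenses farnesyl diphosphate to squalene, Sqle oxidises squalene, Lss closes the sterol rings and Cyp51 removes a methyl group from lanosterol. These genes are known targets of the transcription factor SREBP-2 (gene Srebf2), which is activated when membrane sterols are low. Insig1 holds the SREBP escort protein Scap in the endoplasmic reticulum when sterols are plentiful, and is itself an SREBP target. In skin, cholesterol goes into the epidermal lipid barrier, sebum and the membranes of dividing cells.

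In this assay a transcript is counted through a tag of 21 bases, CATG and the 17 bases that follow it, and a gene is seen through 1 or a few such tags. The tag with the most copies is shown for each of the 8 genes, because it adds most to the values below. Unless a tag or site is named, those values are totals over all tags of the cluster. For Cyp51 the site of this tag held 60.4%, 50.5% and 53.9% of the tags at days 0, 1 and 2. Capitals mark the CATG site cut by NlaIII.
Hmgcs1: CATGtaatttttttgcaagta
Idi1: CATGgccagcaacaaccagaa
Fdps: CATGgaacttgcaaacaagat
Fdft1: CATGctcttggctgccctgag
Sqle: CATGccggccagcttccttcc
Lss: CATGttctgaagtagaaataa
Cyp51: CATGagaaatcaggtattttc
Insig1: CATGtccgtgctaagtttgca

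Placed on GRCm38 with GENCODE release M21, the Hmgcs1 tag lies in the 3' UTR in exon 11 of 11 (chr13:119707888-119707908, plus strand) and the Idi1 tag in the 3' UTR in exon 5 of 5 (chr13:8891958-8891978, plus strand). The Cyp51 tag (chr5:4081451-4081471, minus strand, exon 10 of 10) and the Insig1 tag (chr5:28078586-28078606, plus strand, exon 5 of 5) are also in the 3' UTR. The Fdps tag is coding sequence of exon 11 of 11 (chr3:89093662-89093682, minus strand), 95 bases from the transcript end. It occurs in 7 reference genes, Fdps and 6 predicted ones, so the tag cannot separate Fdps from these copies. The Fdft1 tag, coding sequence of exon 10 of 10 (chr14:63146811-63146831, minus strand), occurs in the predicted gene Gm6781 too. It is the 8th CATG site from the 3' end, 1682 bases from the annotated transcript end. The Lss tag (chr10:76557019-76557039, plus strand) lies in the last exon of a transcript annotated as a retained intron, and no coding transcript of Lss contains it.

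Sqle was seen through few tags, 8, 6 and 5 at days 0, 1 and 2. Its most frequent tag is coding sequence of exon 7 of 11 (chr15:59324514-59324534, plus strand). The tag at the 3'-most CATG site of its coding transcripts is shown because it is not listed in any of the 3 tables.
Sqle 3'-most: CATGtaaatataagccttact
The cluster sequence that stands for Sqle in the tables has 4466 bases. The reference transcript annotated as a retained intron has 4467 bases, and the coding Sqle transcripts have 2758 and 2636 bases. Whether the 19 tags measure the coding mRNA was not tested. Sqle values below carry wide intervals, and medians of the 8 genes include them; with 50 or more tags required, which leaves out Sqle, the medians were -0.26 at day 1 and -0.68 at day 2 against day 0, and -0.28 at day 2 over day 1.

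Tags assigned to clusters numbered 2731787, 2859653 and 2636804 for days 0, 1 and 2. Levels are given as CPM, the tags per 1000000 once library sizes were multiplied by TMM factors (trimmed mean of M values) of 1.03, 0.94 and 1.03. All 8 genes had at least 15 tags over the 3 libraries, the minimum for a cluster to be tested, which 13812 clusters passed. To be called, a difference had to reach 2-fold and an adjusted p of 0.001 or less (Benjamini-Hochberg over all clusters tested) in the exact conditional binomial test of the tags in 2 libraries. With 1 library per group no difference has a replicate check, and the test compares libraries, not conditions. Intervals after log2 ratios are exact 95% intervals that cover counting error only, and PCR copies of a tag cannot be told from separate molecules. All 15 listed marker genes of the epidermis passed the minimum of tags, at levels from 5.33 CPM for Krt1 to 6341 CPM for Krt10 at day 0. Whether a cluster holds all tags of its gene was not tested, so CPM values do not rank genes against each other.

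At day 1 after the drug, the early steps Hmgcs1 and Idi1 stood lowest against untreated skin, and Idi1 was the 1 gene of the 8 that was called. Idi1 had 245, 115 and 136 CPM at days 0, 1 and 2, from 688, 310 and 371 tags. It was lower in both treated libraries than in the untreated one, with counting intervals of 103 to 129 CPM at day 1 against 227 to 264 CPM at day 0. Idi1 fell by 1.09 on the log2 scale at day 1 (-1.29 to -0.89, adjusted p = 2.3e-28 in the exact binomial test), which is 2.12-fold lower. Of all clusters tested 5.5% had a lower ratio. In this comparison 1.43% of clusters were called lower and 1.53% higher, beside 1 and 0 of the 8 genes. If libraries of 1 group are assumed to vary by a coefficient of variation of 0.2, Idi1 is no longer called (adjusted p = 0.457, edgeR's exact test).

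Hmgcs1 had 614, 376 and 382 CPM at days 0, 1 and 2 (1728, 1012 and 1039 tags), so that the treated libraries were close to each other and both below day 0. Its log2 ratio at day 1 was -0.71 (-0.82 to -0.60), or 1.64-fold lower (adjusted p = 1.3e-34, exact binomial test). It was not called because the difference is under 2-fold. The farnesyl diphosphate synthase Fdps, at 779, 741 and 433 CPM at days 0, 1 and 2 (2190, 1996 and 1178 tags), had a day 1 ratio of -0.07 (-0.16 to 0.02). Fdft1, the squalene synthase, had 210, 202 and 129 CPM at days 0, 1 and 2 (592, 544 and 350 tags) and a day 1 ratio of -0.06 (-0.23 to 0.11). For both, the interval includes no difference.

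**Figure D1:**
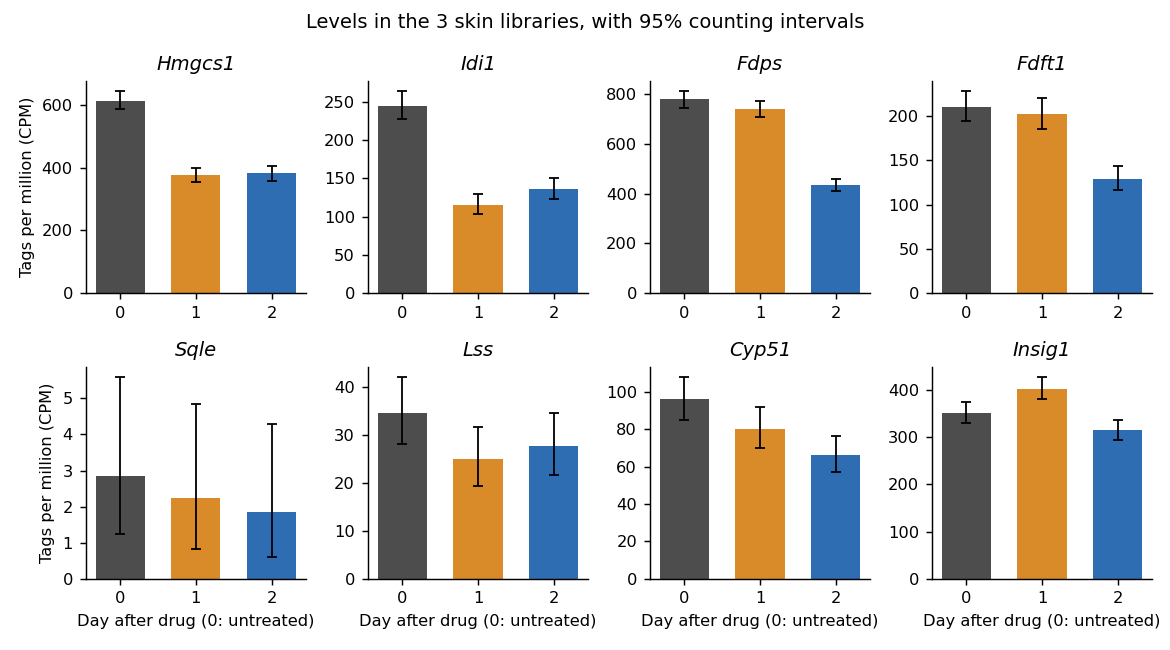
Level of each gene (vertical axis, CPM from 0) in the libraries of days 0, 1 and 2 (horizontal axis), 1 bar per library with its exact 95% Poisson interval, which covers counting error only. Hmgcs1 and Idi1 are below day 0 on both days, Fdps and Fdft1 lie near day 0 at day 1 and lower at day 2 (433 and 129 CPM), and the Insig1 bars range from 316 to 403 CPM.

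The later steps had intermediate ratios at day 1. Lss, the cyclase, had 34.5, 24.9 and 27.6 CPM at days 0, 1 and 2 (97, 67 and 75 tags), a day 1 ratio of -0.47 (-0.94 to -0.01). Cyp51 had 96.0, 80.2 and 66.2 CPM (270, 216 and 180 tags), a day 1 ratio of -0.26 (-0.52 to 0.00). Neither passed the test, with adjusted p values of 0.139 and 0.159 (exact binomial). Sqle was at -0.33 (-2.16 to 1.36). Insig1 was the 1 gene of the 8 with a ratio above 0, at 0.20 (0.07 to 0.32), with 403 CPM at day 1 against 352 CPM at day 0 (1087 against 990 tags), and was not called (adjusted p = 0.0117, exact binomial test). The median log2 ratio of the 8 genes was -0.29, beside -0.02 for all clusters tested. Their summed level was 1944 CPM at day 1 against 2334 CPM at day 0.

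At day 2 all 8 genes had ratios below 0 against untreated skin, from -0.85 to -0.16, and none was called at the 2-fold minimum. The median was -0.63, beside 0.01 for all clusters tested, and the summed level was 1492 CPM at day 2 against 2334 CPM at day 0. In this comparison 3.08% of clusters were called lower and 3.45% higher. Fdps had 433 CPM at day 2 against 779 CPM at day 0, with a log2 ratio of -0.85 (-0.95 to -0.74), a 1.80-fold lower level. Idi1 was at -0.84 (-1.03 to -0.66), Fdft1 at -0.71 (-0.90 to -0.52) and Hmgcs1 at -0.68 (-0.80 to -0.57).

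Cyp51 was at -0.53 (-0.82 to -0.26), with 66.2 CPM at day 2 against 96.0 CPM at day 0. When the 2-fold minimum was dropped, a reading chosen after the values were seen, 5 of the 8 genes passed an adjusted p of 0.001 in the exact binomial test as lower at day 2, namely Hmgcs1, Idi1, Fdps, Fdft1 and Cyp51. Of all clusters, 7.91% were lower and 7.37% higher by that reading. Without a fold minimum, clusters with more tags pass at smaller ratios, and these shares include clusters with as few as 15 tags. The 5 genes had 666 to 5364 tags over the 3 libraries. By ratio, 15.7%, 11.4%, 11.4%, 14.6% and 20.8% of clusters lay lower than these genes, in the order named. The same limit applies to this reading in the other comparisons. With an assumed coefficient of variation of 0.2, none of the 5 passes, with adjusted p values of 0.573, 0.408, 0.396, 0.561 and 0.747 in that order (edgeR's exact test). At day 1 the same reading gave Hmgcs1 and Idi1 as lower, 2 of 8, beside 5.23% of clusters lower and 5.96% higher. By ratio, 13.7% and 5.5% of clusters lay lower than Hmgcs1 and Idi1 at day 1. The ratios of Fdft1 and Fdps rest on tags shared with other reference genes. By the tags that match Fdft1 alone (32, 37 and 23 at days 0, 1 and 2) its day 2 ratio was -0.42 (adjusted p = 0.481, exact binomial test). Lss, at -0.32 (-0.78 to 0.13), Sqle, at -0.58 (-2.59 to 1.16), and Insig1, at -0.16 (-0.29 to -0.02), did not pass either reading.

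**Figure D2:**
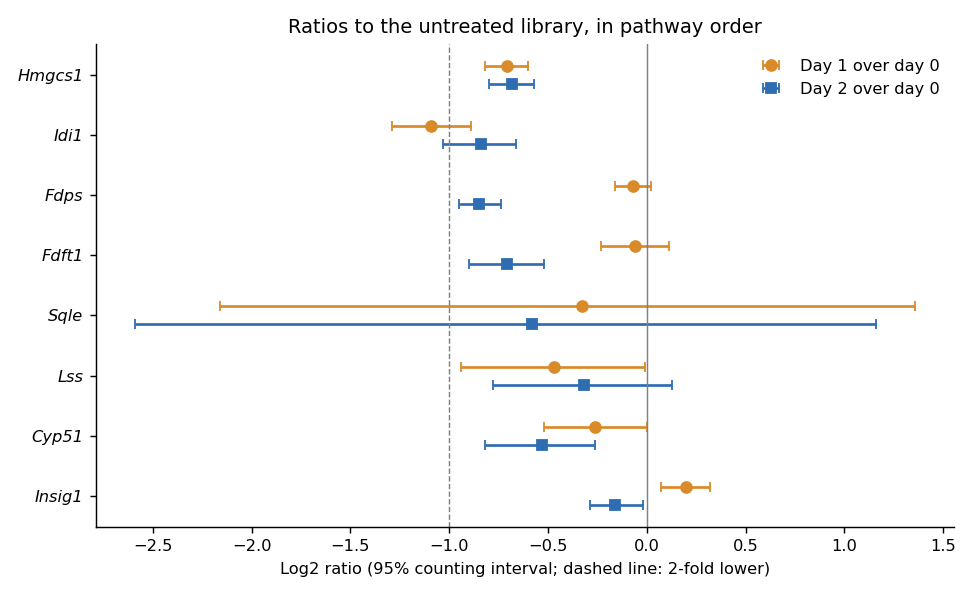
Log2 ratio to the untreated library (horizontal axis) of the 8 genes in the order of the pathway, Insig1 last, with circles for day 1, squares for day 2 and bars for exact 95% counting intervals. Idi1 at day 1 (-1.09) is the 1 point beyond the dashed line of 2-fold lower, and Fdps and Fdft1 lie near 0 at day 1 and at -0.85 and -0.71 at day 2.

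Between the treated days, day 2 was lower than day 1 for Fdps and Fdft1, whereas Hmgcs1 stood level. Fdps had a day 2 over day 1 ratio of -0.77 (-0.88 to -0.67) and Fdft1 one of -0.65 (-0.85 to -0.45). Hmgcs1 was at 0.02 (-0.10 to 0.15) and Idi1 at 0.25 (0.02 to 0.47). Insig1 had 316 CPM at day 2 against 403 CPM at day 1, a ratio of -0.35 (-0.49 to -0.22). None of the 8 was called, beside 1.11% of clusters called lower and 1.83% called higher, and the median was -0.26 beside -0.01 for all clusters. Without the fold minimum, Fdps, Fdft1 and Insig1 were lower (adjusted p of 9.3e-48, 8.8e-10 and 1.4e-06 in the exact binomial test), 3 of 8, beside 5.28% of clusters lower and 4.63% higher. By ratio, 8.6%, 11.8% and 24.6% of clusters lay lower than Fdps, Fdft1 and Insig1. Cyp51 at -0.28 (-0.57 to 0.02), Lss at 0.15 (-0.35 to 0.65) and Sqle at -0.25 (-2.33 to 1.70) had intervals that include no difference, like Hmgcs1. The interval of Idi1 lies just above 0, and its adjusted p was 0.11 (exact binomial test). The day 1 and day 2 comparisons share the untreated library, so each is set out by its own values.

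Copies at separate CATG sites of a gene did not always have like ratios. In 3 genes, Hmgcs1, Cyp51 and Insig1, a second site had 100 or more copies over the libraries, and their second tags are shown for that reason. This minimum was chosen after the values were seen.
Hmgcs1 site 5: CATGcagtttagttttcagat
Cyp51 site 8: CATGatgagaatggccaagac
Insig1 site 2: CATGttcacttagtctagact
Sites are numbered from the 3' end as in the tables. Hmgcs1 site 5 (chr13:119706749-119706769, plus strand) is in the 3' UTR, 1512 bases from the transcript end, where site 1 is 373 bases from it. Site 1 of Hmgcs1 had 1440, 790 and 808 copies at days 0, 1 and 2, and site 5 had 254, 193 and 211. The site 1 ratio was -0.80 (-0.93 to -0.68) at day 1 and -0.78 (-0.91 to -0.66) at day 2, both against day 0. Site 5 gave -0.33 (-0.61 to -0.06) at day 1 and -0.22 (-0.49 to 0.05) at day 2. The split of copies over the sites had adjusted p values of 0.00977 at day 1 and 0.00136 at day 2 (Fisher's exact test, adjusted over 9 tests). This test was not planned and had no threshold of its own, and neither value reached the 0.001 used for calls. Site 5 held 19.1% of the Hmgcs1 tags at day 1 and 20.3% at day 2, against 14.7% at day 0.

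Insig1 site 2 (chr5:28076942-28076962, plus strand) is in the 3' UTR, 1721 bases from the transcript end, and had 83, 99 and 107 copies at days 0, 1 and 2. Site 1 of Insig1, 77 bases from that end, had 897, 979 and 737. At day 2 against day 0 site 1 was at -0.23 (-0.38 to -0.09) and site 2 at 0.41 (-0.01 to 0.85), an odds ratio of 0.64 (adjusted p = 0.0105, Fisher's exact test). The day 2 ratio of Insig1 as a whole (-0.16) joins these values. Cyp51 site 8 (chr5:4087785-4087805, minus strand) is coding sequence of exon 8 of 10 and had 103, 97 and 83 copies, beside 163, 109 and 97 at site 1. Its sites stood at -0.26 (-0.70 to 0.17) and -0.70 (-1.08 to -0.33) at day 2 against day 0, a difference that did not pass (adjusted p = 0.213, Fisher's exact test). For Idi1 the question does not arise, since site 1 held 98.5%, 96.5% and 98.4% of its tags at days 0, 1 and 2. All Fdps tags were at 1 site.

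**Figure D3:**
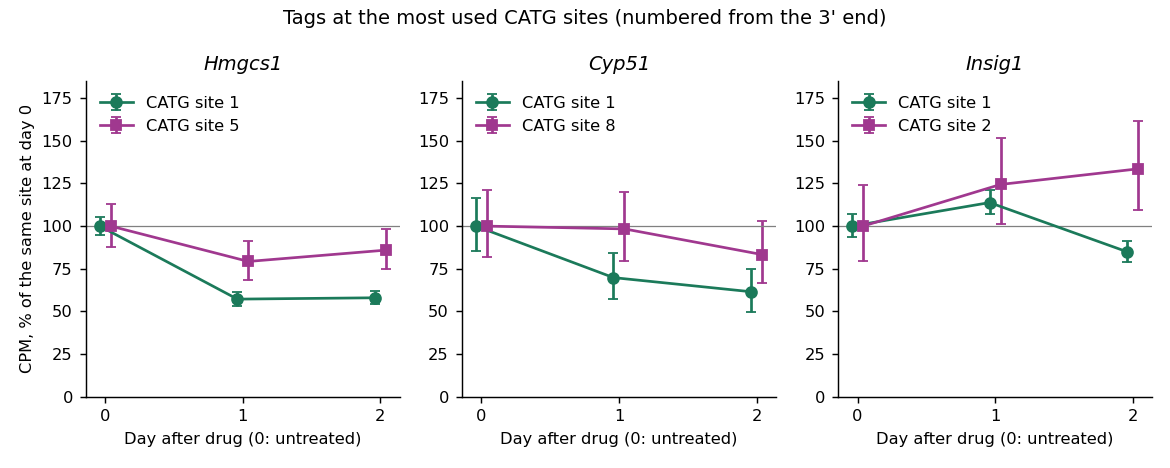
CPM at the 2 most used CATG sites of Hmgcs1, Cyp51 and Insig1, as a percentage of the same site at day 0 (vertical axis, from 0), by day (horizontal axis), with exact 95% Poisson intervals of each count. Hmgcs1 site 1 (512, 293 and 297 CPM) lies below site 5 (90.3, 71.6 and 77.6 CPM) on this scale at both treated days, and Insig1 site 2 is above site 1 at day 2.

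The other genes of the pathway had ratios on both sides of 0. Counts of called genes in the lists that follow stand beside the same shares of all clusters, 1.53% higher and 1.43% lower at day 1 against day 0, 3.45% higher and 3.08% lower at day 2 against day 0, and 1.83% higher and 1.11% lower at day 2 over day 1. Of 11 measured genes of mevalonate and isoprenoid synthesis, of 13 listed, 0 were called at day 1, and 2 fell and 0 rose at day 2 (3.08% and 3.45% of all clusters). These were Mvk, the mevalonate kinase, and Acat2, which makes acetoacetyl-CoA. Mvk had 30.2 CPM at day 2 against 79.3 CPM at day 0 (-1.39, -1.78 to -1.02). Acat2 had 54.1 CPM at day 2 against 111 CPM at day 0 (-1.04, -1.33 to -0.75), and was not called when libraries were scaled by all tags the authors kept. Mvk also fell between day 1 and day 2, by 1.19 on the log2 scale. With an assumed coefficient of variation of 0.2, Mvk and Acat2 are no longer called. Mvd, the decarboxylase before Idi1, was at 0.05 (-0.17 to 0.27) at day 1 and -0.41 (-0.65 to -0.17) at day 2.

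Past Cyp51, 7 of 9 listed genes of sterol synthesis were measured and 0 were called in any of the 3 comparisons. Their median log2 ratio was 0.26 at day 1 and 0.15 at day 2. The reductase gene Dhcr7 was at 0.28 (0.05 to 0.52) at day 2, and the methylsterol oxidase Msmo1 at 0.19 (-0.04 to 0.41). Named after its values were seen, Lbr, which combines sterol reductase activity with lamin binding, lay on the other side at -0.86 (-1.08 to -0.65), and so did the desaturase Sc5d at -0.51 (-0.81 to -0.23).

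**Figure D4:**
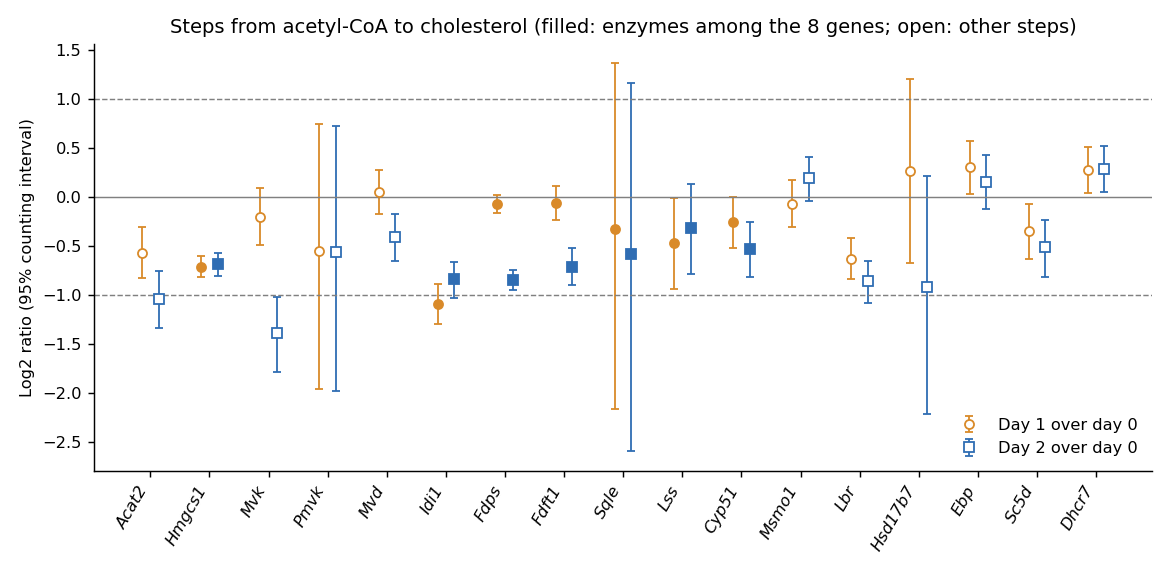
Log2 ratio to the untreated library (vertical axis) for measured genes of cholesterol synthesis in pathway order, circles for day 1 and squares for day 2, filled for the enzymes among the 8 genes and open for others, with exact 95% counting intervals and dashed lines at 2-fold. Mvk and Acat2 at day 2 and Idi1 at day 1 lie past the lower line, while Dhcr7 lies above 0 on both days.

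Among 13 measured genes of sterol uptake and transport, of 16 listed, 0 were called against day 0 and 1 was called higher at day 2 over day 1. Their median log2 ratio was 0.08 at day 1 and 0.13 at day 2 against day 0, and -0.22 at day 2 over day 1. Against day 0, 9 had ratios above 0 and 4 below at day 2. At day 2 over day 1, 6 were above 0 and 7 below. Scarb1, a receptor for high-density lipoprotein named after its values were seen, was above day 0 without a call, at 111 CPM at day 2 against 56.9 CPM at day 0 (0.96, 0.68 to 1.25). The gene called higher was Lrp1, a large scavenging receptor, with 200 CPM at day 2 against 94.7 CPM at day 1 (1.08, 0.86 to 1.30). It is no longer called with an assumed coefficient of variation of 0.2. Stard4, a sterol carrier, had too few tags to be tested.

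All 11 listed genes of SREBP regulation were measured, and 0 were called in any comparison. Srebf2 had 126, 142 and 78.0 CPM at days 0, 1 and 2, a ratio of 0.18 (-0.03 to 0.39) at day 1 and -0.69 (-0.94 to -0.44) at day 2. Srebf1, whose product acts mainly on fatty acid genes, was at 0.39 (0.19 to 0.59) at day 2. Insig2, the relative of Insig1, had 247, 255 and 279 CPM, and Scap had 6.04, 6.68 and 8.09 CPM at days 0, 1 and 2. The ratios of Insig2 were 0.05 (-0.11 to 0.20) at day 1 and 0.18 (0.03 to 0.33) at day 2, and those of Scap 0.14 (-0.90 to 1.19) and 0.41 (-0.56 to 1.42).

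Of 10 measured genes of sterol export and storage, of 13 listed, 0 were called at day 1 against day 0, and 2 rose and 0 fell at day 2 against day 0, where 3.45% of all clusters were called higher and 3.08% lower. Abca1, the transporter that loads cholesterol onto apolipoproteins, had 38.4, 57.9 and 115 CPM at days 0, 1 and 2, and rose at day 2 (1.58, 1.26 to 1.91). Nceh1, which releases cholesterol from its esters, had 8.89, 16.7 and 35.3 CPM and rose as well (1.97, 1.34 to 2.69). Cyp7b1, an oxysterol hydroxylase, was called higher at day 2 over day 1, where it had 17 tags at day 2 and was absent from the day 1 table. Nceh1 was called higher in that comparison too (1.07, 0.55 to 1.62), and no longer with an assumed coefficient of variation of 0.2. Abca1 and Nceh1 at day 2 against day 0 stay called with an assumed coefficient of variation of 0.2 and not with 0.4, and Cyp7b1 was not tested when 50 tags were required. The related transporter Abcg1 was at 0.54 (-0.34 to 1.48) at day 2 and was not called.

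Fatty acid synthesis, the other branch under SREBP control, had 13 measured genes of 14 listed. Of these 1 fell at day 1 (1.43% of all clusters), and 2 fell and 0 rose at day 2 (3.08% and 3.45% of all clusters), both against day 0. At day 2 over day 1, 1 rose and 1 fell (1.83% and 1.11% of all clusters). Fads2, a desaturase of polyunsaturated fatty acids, had 92.1, 45.3 and 18.8 CPM at days 0, 1 and 2 and fell by 1.02 at day 1 and by 2.28 at day 2 on the log2 scale, both against day 0. The day 1 call is lost with a pseudocount of 5 tags. Scd2, a desaturase of saturated fatty acids, fell by 1.24 at day 2. With an assumed coefficient of variation of 0.2, Fads2 at day 2 against day 0 is the 1 call of this list that remains. That call too was made at an adjusted p of 0.05 or less (edgeR's exact test). Fasn, the fatty acid synthase, was at 0.07 (-0.41 to 0.55), and Elovl6, an elongase, rose at day 2 over day 1 (1.09, 0.97 to 1.21). Fads2 fell in that comparison (-1.26, -1.77 to -0.79).

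Whole skin mixes cell types, and in bulk RNA fewer cells of a type cannot be told apart from less RNA per cell. Marker genes of several types differed between the same libraries. Sums of marker levels are given for days 0, 1 and 2 in turn, and calls are against day 0, where 1.53% of all clusters were higher and 1.43% lower at day 1, and 3.45% higher and 3.08% lower at day 2. The 12 adipocyte markers, all measured, summed to 4903, 3579 and 3180 CPM, and 1 of them, Lep, rose at day 2 against day 0. Fabp4 alone held 3347, 2193 and 1710 CPM of these sums. Against day 0, 6 of the markers had ratios above 0 and 6 below at day 1, and 4 above and 8 below at day 2. Their median log2 ratios were 0.12 at day 1 and -0.19 at day 2. For 12 of 16 sebaceous gland markers the sums were 896, 885 and 1065 CPM. Among these Scd3 fell at day 1 and Dgat2l6 rose at day 2, while Krt79 and Plin5 had no cluster and Pparg was listed at day 2 alone, with 2 tags. Hair follicle markers, 14 of 15, summed to 47209, 68891 and 29300 CPM, with 2 rising at day 1 and 4 falling at day 2.

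The epidermal markers, 15 of 15, summed to 17498, 21668 and 20416 CPM, with 0 called against day 0. Macrophage markers, 9 of 13, summed to 279, 300 and 632 CPM, with 1 rising at day 1 and 5 at day 2. Muscle markers, 13 of 14, summed to 12776, 19676 and 25763 CPM, with 5 rising at day 1 and 6 at day 2. Fibroblast markers, 9 of 10, summed to 3525, 2318 and 3867 CPM, with 3 rising at day 2. Red cell markers, 4 of 7, summed to 1810, 1617 and 141 CPM, with all 4 falling at day 2. What part these differences have in the values of the 8 genes was not tested.

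The mean profile of the 8 genes, centred on each gene's own mean, was 0.31, -0.04 and -0.27 on the log2 scale at days 0, 1 and 2. Among 3147 other named genes with a mean of 50 CPM or more, the 5 nearest profiles over the 3 libraries were those of Arel1, Bloc1s2, Dcaf5, Kdm1a and Psapl1, at distances of 0.011 to 0.018. The histone demethylase gene Kdm1a, for one, had 97.4, 76.5 and 64.0 CPM at days 0, 1 and 2. With 3 points per profile, near neighbours are easily found.

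Promoters from RefSeq (GRCm38.p6, 250 bases before to 50 after the gene start) were held for 5 of the 8 genes, Hmgcs1, Idi1, Lss, Cyp51 and Insig1, and not used here for Fdps, Fdft1 and Sqle. A form of the sterol regulatory element, TCACNCCAC, was searched on both strands because several of these genes had lower ratios together. It occurred once, in Hmgcs1, 137 bases before the gene start, and in 1.24% of all 32851 promoters. The stretch around it, chr13:119690204-119690232 on the plus strand, is shown with the match in capitals.
Hmgcs1 promoter: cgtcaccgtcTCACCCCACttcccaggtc
The box CCAAT, bound by the factor NF-Y, occurred on either strand in all 5 promoters and in 37.4% of all promoters. These are matches of letters and were not related to the values of the libraries.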

How the data were processed

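Digital gene expression tags of 3 skin libraries were used, 1 per group. Per the labels' protocols, mRNA was bound to oligo(dT) beads, copied to cDNA, cut with NlaIII and MmeI, amplified by PCR and sequenced. The deposited tables give, per the file headers, a raw count per UniGene cluster, the copy number of each tag with its CATG site, and TPM, which is the count per 1000000 of all tags the authors kept (6030093, 6070058 and 5666060 at days 0, 1 and 2). Of these the tables hold 45.3%, 47.1% and 46.5%. No copy number under 2 is listed, so an unlisted gene may still have had a tag. The aligner and build are not stated in the labels or headers.

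Clusters were named by exact match of tags to GENCODE M21 transcripts (80% of matched and 50% of all tags in 1 gene; 15076 clusters), by shared tags (767) or by RefSeq accession (195), and 4557 stayed unnamed. A symbol with several clusters was read from the one with most tags. edgeR 4.0.16 gave TMM factors over clusters with 15 or more tags, and scipy 1.17.1 the exact tests. With no replicates, edgeR's quasi-likelihood test was not run. Log2 ratios carry a pseudocount of 0.5 tags. The test was checked on simulated data. Alternatives covered scaling (DESeq2 1.42.0), filter, pseudocount, tags used and an assumed variation between animals. Text names the 8 genes, list members that were called and a set of pathway genes. The 8 genes and all lists were chosen with earlier results of these data known. Some genes of these lists are counted and not reported by name here.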

Additional observations from a re-analysis of the deposited data

How the results depend on the processing

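No paired analysis was possible because each group holds 1 library. Of the ratios of the 8 genes under alternatives, 263 kept direction and call. Another 9 gained a call without the fold minimum, 2 lost theirs and 2 turned. Before these alternatives only Idi1 at day 1 was called, so most ratios had no call to lose. Hmgcs1 at day 1 counts as kept all the same. Its adjusted p was 1.3e-34 in the exact binomial test and 0.801 in edgeR's exact test at an assumed coefficient of variation of 0.2. Idi1 at day 1 ranged from -1.21 to -1.07 and stayed called under all alternatives but edgeR's exact test run at an assumed coefficient of variation within groups (adjusted p of 0.05). That test gave Idi1 an adjusted p of 0.457 at 0.2 and 1 at 0.4, against 1.3e-35 to 2.0e-27 over the other alternatives. Under it 0 of the 8 genes were called in any of the 3 comparisons, and of all clusters 29 at 0.2 and 0 at 0.4 for day 1 over day 0 (408 by the binomial test), 245 and 6 for day 2 over day 0 (902), and 90 and 2 for day 2 over day 1 (407). Calls of clusters thus depend on a variation that 1 library per group cannot measure. Without a fold minimum, 2, 5 and 3 of the 8 genes were called for day 1 over day 0, day 2 over day 0 and day 2 over day 1, and 1546, 2110 and 1368 clusters. The ratios that turned, both at day 1, were Sqle by its most frequent tag (0.06) and Fdft1 by tags of 1 gene (0.27); fewer tags were used in each. Scaling by tags assigned to clusters gave 129 clusters higher and 346 lower at day 1, against 211 and 197, and 380 higher and 102 lower for day 2 over day 1, against 253 and 154. Scaling by all kept tags gave 157 and 276, and 358 and 109. Scaling by assigned tags moved the median of all clusters to -0.15 at day 1. The median of the 8 genes stayed below 0 under all alternatives, from -0.50 to -0.23 at day 1, from -0.76 to -0.52 at day 2 and from -0.30 to -0.08 for day 2 over day 1. Fdps has no value by tags of 1 gene, nor Fdft1 and Sqle by the 3'-most site alone. Leaving out a library was not possible with 1 per group.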
